A study of Homo sapiens with 4 samples.

Results

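The replication-dependent histone genes are the protein-coding genes named H1-1 to H1-6, or H2AC, H2BC, H3C or H4C followed by digits, by the RefSeq annotation of GRCh38.p14, the patched form of the hg38 build. They number 69 of 19817 protein-coding genes on chromosomes 1 to 22 and X: 6 of family H1, 17 of H2A, 18 of H2B, 13 of H3 and 15 of H4. The genes were chosen by symbol alone and not by any measured value. The data are 2 lists of H2AK119ub peaks from H1 cells, an established line of human embryonic stem cells, grown in mTeSR1 medium and immunoprecipitated with an anti-H2AK119ub antibody. The wild-type list comes from untreated H1 cells and the knockdown list from H1 cells treated with an shRNA against YTHDF1, a cytoplasmic reader of methylated adenosine in messenger RNA. Each group has 1 H2AK119ub library, so there is no spread between replicates, and no difference was tested. No label says whether the knockdown cells are a clone or a pool. A list of H2AK119ub peaks measures neither the YTHDF1 transcript nor the identity of the cells, so it checks neither label.

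H2AK119ub is a single ubiquitin placed on histone H2A by Polycomb repressive complex 1 through its catalytic subunits RING1 and RNF2. The H2A genes described here therefore encode the substrate of the mark. Replication-dependent histone genes lie in clusters, are mostly short and without introns, and are transcribed in S phase, when new DNA has to be packaged. Their messenger RNAs end in a stem-loop bound by SLBP in place of a poly(A) tail, and NPAT is the coactivator that drives them at S phase entry.

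The members fell into 7 groups, where a group is a run of members with gaps of at most 200 kb. The group that begins at 26 Mb of chromosome 6 held 32 members in 268.5 kb. The group at 27.8 Mb of chromosome 6 held 16 in 86.4 kb. The group at 149.8 Mb of chromosome 1 held 11, and the group at 27.1 Mb of chromosome 6 held 5. H2AC25 and H2BC26 formed a group at 228.5 Mb of chromosome 1, and H2AC1 and H2BC1 one at 25.7 Mb of chromosome 6. H4C16, at 14.8 Mb of chromosome 12, stood alone. The gene table gives starts and ends but neither exons nor UTRs, so no peak was assigned to them. Strands came from the RefSeq promoter table of GRCh38.p14, which held 64 of the 69 members.

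Many H2A and H2B genes are transcribed away from each other from a shared stretch of DNA. Among the 64 members with an annotated start, 11 such pairs were found, with starts 194 to 248 bp apart (median 236 bp). These stretches are shown because each is promoter DNA of 2 members at once and because 3 of the 5 printed lay in a peak of 1 list alone. The stretch between H2BC11 and H2AC11 (chr6:27132796-27133042) and that between H2AC14 and H2BC14 (chr6:27814778-27815021) lay wholly in a wild-type peak and in no knockdown peak. The stretch between H2BC4 and H2AC6 (chr6:26123927-26124171) lay in a knockdown peak alone. The stretch between H2BC8 and H2AC8 (chr6:26216689-26216920) lay in a peak of both lists, and that between H2AC1 and H2BC1 (chr6:25726563-25726776) in a peak of neither. All are RefSeq sequence of GRCh38.p14 on the plus strand, from the base after the start of the left gene to the base before the start of the right gene. Capitals mark the TATA box TATAAA, the CCAAT box, the octamer ATTTGCAT and the H1 box AAACACA on either strand, so that their reverse complements are in capitals as well. Matches may overlap, as the TATA boxes on opposite strands beside H2AC11 do.
H2BC11 to H2AC11: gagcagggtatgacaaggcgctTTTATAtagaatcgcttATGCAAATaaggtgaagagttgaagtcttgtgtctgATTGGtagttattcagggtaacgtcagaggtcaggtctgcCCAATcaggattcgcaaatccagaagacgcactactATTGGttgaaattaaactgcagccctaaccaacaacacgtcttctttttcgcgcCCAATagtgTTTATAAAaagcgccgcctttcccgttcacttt
H2AC14 to H2BC14: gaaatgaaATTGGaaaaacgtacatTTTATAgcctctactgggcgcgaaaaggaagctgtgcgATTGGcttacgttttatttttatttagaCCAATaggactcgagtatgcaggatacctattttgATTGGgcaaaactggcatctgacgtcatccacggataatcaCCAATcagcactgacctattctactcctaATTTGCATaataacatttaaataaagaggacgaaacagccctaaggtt
H2BC4 to H2AC6: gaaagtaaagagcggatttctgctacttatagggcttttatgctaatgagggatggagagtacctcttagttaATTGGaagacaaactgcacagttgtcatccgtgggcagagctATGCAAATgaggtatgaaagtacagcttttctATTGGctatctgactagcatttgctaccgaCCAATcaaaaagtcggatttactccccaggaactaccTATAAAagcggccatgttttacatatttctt
H2BC8 to H2AC8: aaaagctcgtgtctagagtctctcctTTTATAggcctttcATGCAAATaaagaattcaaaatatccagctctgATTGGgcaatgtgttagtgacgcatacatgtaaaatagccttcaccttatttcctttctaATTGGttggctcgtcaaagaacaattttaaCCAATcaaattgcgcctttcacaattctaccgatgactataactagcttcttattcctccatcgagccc
H2AC1 to H2BC1: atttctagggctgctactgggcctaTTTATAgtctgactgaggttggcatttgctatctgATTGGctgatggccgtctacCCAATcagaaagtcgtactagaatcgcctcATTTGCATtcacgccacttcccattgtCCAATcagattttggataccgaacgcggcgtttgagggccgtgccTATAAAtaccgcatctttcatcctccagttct

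The 5 stretches printed hold the octamer ATTTGCAT, the TATA box and the CCAAT box on 1 strand or the other. Among the rest, those of H2AC25 with H2BC26 and of H2AC15 with H2BC15 hold neither the TATA box nor the octamer, that of H2BC13 with H2AC13 holds no octamer and that of H2AC7 with H2BC7 no TATA box. Over the 11 pairs, the wild-type list covered 8 stretches wholly and 3 not at all. The knockdown list covered 6 wholly, 4 not at all, and 93.4% of the stretch between H2AC17 and H2BC17. In both lists 5 stretches were wholly covered. H2BC12 and its neighbour H2AC12 are not in these counts, because H2AC12 has no annotated start. The bases between these 2 genes lay in a knockdown peak alone. The stretch between H2AC7 and H2BC7 was in no peak of either list, although both genes had peaks within 2 kb.

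For linker histone and H4 genes, 4 upstream stretches are shown, of genes that differed between the lists or kept their peak. Each is the 150 bases before the annotated start, read in the direction of transcription, with the same motifs in capitals. H1-6 (chr6:26108136-26108285, minus strand) encodes a linker histone of the testis and had a wild-type peak alone. H1-4 (chr6:26156179-26156328, plus strand), a linker histone of somatic cells, had a peak in both lists. H4C5 (chr6:26204460-26204609, plus strand) was covered in the wild type alone, and H4C16 (chr12:14771132-14771281, minus strand) in both lists.
H1-6: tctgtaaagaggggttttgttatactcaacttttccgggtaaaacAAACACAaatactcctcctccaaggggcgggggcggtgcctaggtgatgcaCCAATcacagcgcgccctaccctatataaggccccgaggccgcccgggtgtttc
H1-4: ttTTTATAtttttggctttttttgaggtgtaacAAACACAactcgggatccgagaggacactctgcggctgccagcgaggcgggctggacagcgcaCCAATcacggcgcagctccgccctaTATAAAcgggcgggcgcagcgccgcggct
H4C5: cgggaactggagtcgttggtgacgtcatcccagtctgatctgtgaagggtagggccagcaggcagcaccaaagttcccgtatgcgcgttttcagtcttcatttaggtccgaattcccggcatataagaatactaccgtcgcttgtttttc
H4C16: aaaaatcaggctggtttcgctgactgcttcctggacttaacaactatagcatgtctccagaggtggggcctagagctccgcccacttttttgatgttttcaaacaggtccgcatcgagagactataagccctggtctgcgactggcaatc

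Both H1 stretches hold the H1 box AAACACA upstream of a CCAAT box, while the H4C5 and H4C16 stretches hold none of these letters. In the 300-base promoter entries, 68 promoters of 64 members were compared with 22071 promoters of 15748 other protein-coding genes. TATAAA stood in 66.2% of the member promoters and 9.29% of the others. It stood in 7 of 13 H4 promoters, although neither H4 stretch printed here holds it. CCAAT stood in 85.3% against 34.5%: all H1, H2A, H2B and H3 promoters held it, but 3 of 13 H4 promoters did. ATTTGCAT, the octamer bound by POU2F1, stood in 39.7% against 1.53%, with 11 of 16 H2A promoters and 15 of 20 H2B promoters. Both strands were searched and the entries of paired H2A and H2B genes overlap, so the same octamer can count for both partners. In addition, 4 members have 2 entries each, and an entry of H3C4 has the same start as H2AC7. These shares are therefore not shares of independent promoters. AAACACA stood in 13.2% against 4.39%, and in 6 of 6 H1 promoters. The member promoters had a median GC content of 43.2% and a median of 11 CpG dinucleotides, against 62.3% and 21 for the others. A match is a description of these letters and not a bound site.

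Marked is used here for a gene with a peak no more than 2 kb away. In wild-type cells 57 members were marked, or 82.6%, and after knockdown 52, or 75.4%. Over all protein-coding genes the shares were 73% and 73.6%. The members are short, and of the 1149 other protein-coding genes that span less than 2 kb 36.8% and 35.9% were marked. Of the members, 49 were marked in both lists and 9 in neither. The wild type alone marked 8 of the 69 members, against 4.2% of all protein-coding genes: H1-6, H2AC18, H2BC9, H3C7, H4C2, H4C3, H4C5 and H4C7. The knockdown alone marked 3, against 4.74% of all protein-coding genes: H2AC6, H2AC12 and H2BC4. Neighbouring members share peaks, so these counts are not counts of independent events. The order of the 2 lists turned when each was limited to the upper 50% of its own peaks by score, which marked 35 members in wild-type cells and 38 in the knockdown. It also turned with lists of equal total covered length, which marked 50 and 52.

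The gene bodies themselves often lay inside peaks. Of the 69 members, 42 lay wholly in a peak in wild-type cells and 34 in the knockdown, against 9.54% and 7.62% of all protein-coding genes and 29.3% and 27.4% of the other short genes. Of the 64 annotated starts, 41 (64.1%) lay in a wild-type peak and 33 (51.6%) in a knockdown peak, against 62% and 62.6% of the starts of 15747 other protein-coding genes. The wild-type share was thus near that of the other genes. Both lists held 30 of the 64 member starts, the wild type alone 11 and the knockdown alone 3. Starts in the wild type alone or in the knockdown alone were not counted for the other genes. Whether 11 against 3 is unusual was therefore not tested. Among the 61 members spanning less than 2 kb, 70.5% had their centre in a wild-type peak and 57.4% in a knockdown peak. At 5 kb from the centre the wild-type share was 32.8% on the lower side of the coordinates and 36.1% on the upper side. The knockdown shares there were 22.95% and 26.2%. For the other short genes the share at the centre was 32.6% in wild-type cells and 30.8% in the knockdown. In the plot of peak share around the gene centre both member curves are highest near the gene centre and fall within a few kb.

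**Figure D1:**
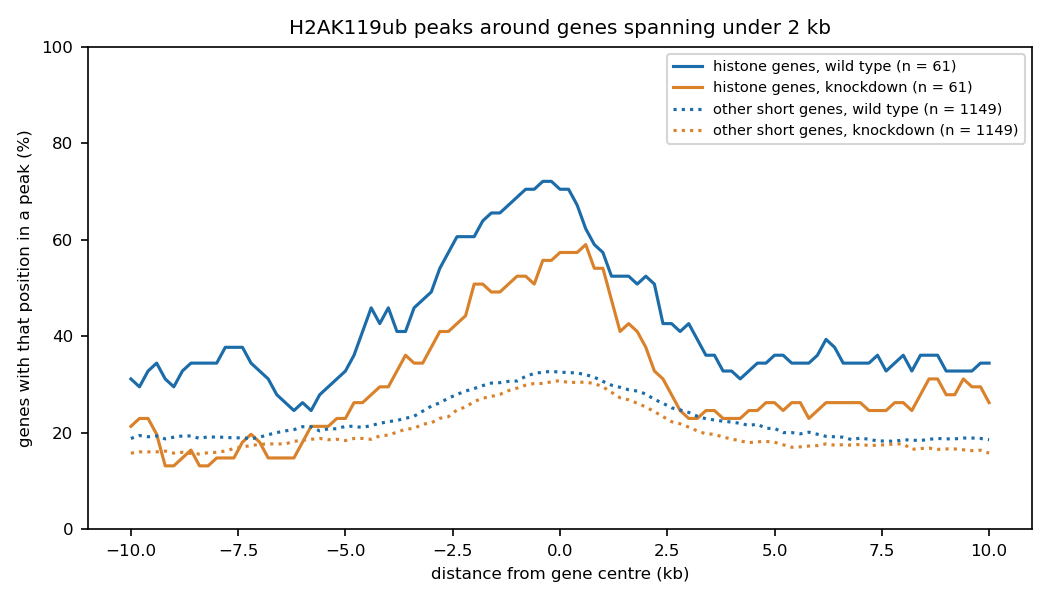
Share of genes (%, vertical axis) with a position in an H2AK119ub peak, at distances up to 10 kb from the gene centre (horizontal axis, kb, in the direction of the genome coordinates). Solid lines are the 61 histone genes spanning less than 2 kb, dotted lines the 1149 other short genes, blue the wild type and orange the knockdown; the solid lines stand at 70.5% and 57.4% at the centre and reach at most 72.1% and 59.02% within 1 kb of it.

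Covered length is the number of bases in peaks from 10 kb before a gene to 10 kb past its end. The mean over the members was 8.48 kb in wild-type cells and 6.31 kb in the knockdown, a difference of -2.17 kb or -25.6%. The medians were 8.4 and 6.6 kb. Windows of neighbouring members overlap, so the same peak can enter these values and the counts of members at up to 6 members. Counted once each, the peaks within 10 kb of a member summed to 208 kb in wild-type cells and 167.6 kb in the knockdown. Over all protein-coding genes the mean difference was -14.0%, and over the other short genes -10.95%. The knockdown length was shorter at 51 members, or 73.9%, against 50.4% of all protein-coding genes. It was longer at 13, or 18.8%, against 28.3% of all, and equal at 5, against 21.3% of all. A difference of at least 1 kb toward shorter was found in 42 members, or 60.9%, against 42.5% of all. Toward longer it was found in 8, or 11.6%, against 21.3% of all. All knockdown peaks together cover 168.3 Mb and all wild-type peaks 195.1 Mb (-13.7%). With both lists limited to the same total covered length, highest scores first, the difference was -15.2% at the members and -3.99% over all genes. The median difference over the members was -2.0 kb, and -0.2 kb without the 32 members of the group at 26 Mb of chromosome 6. Without that group the mean difference was -1.54 kb, with 23 members shorter and 9 longer.

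**Figure D2:**
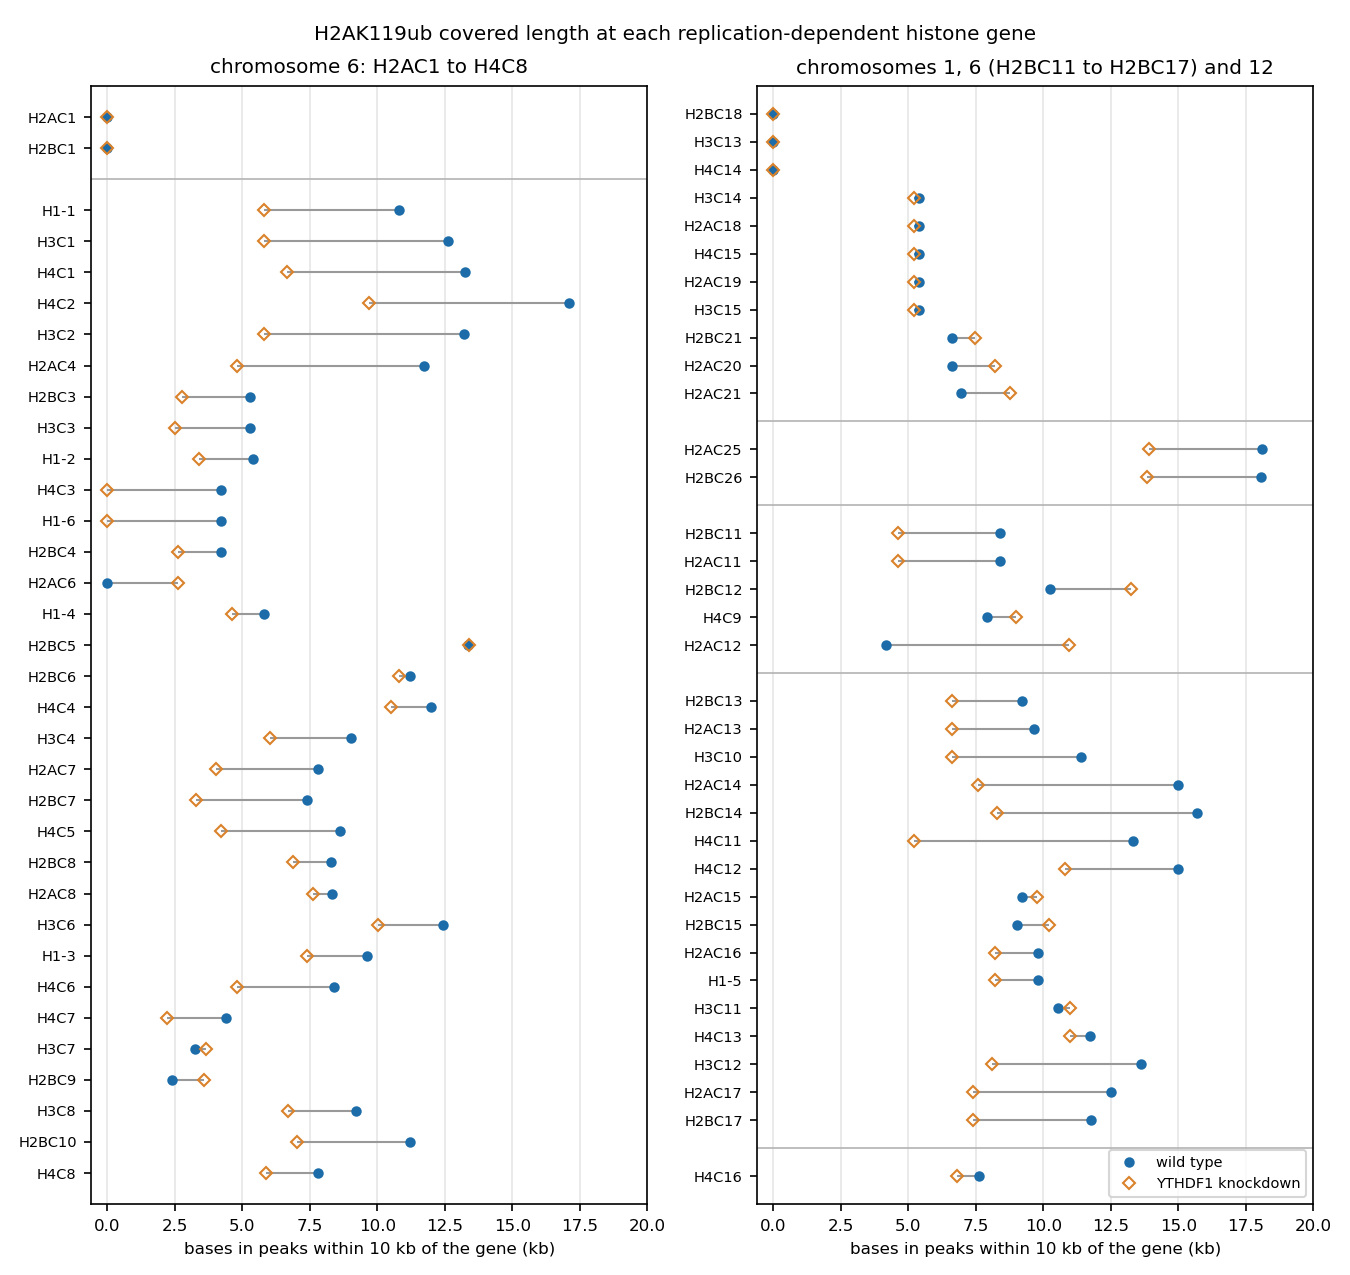
Covered length within 10 kb of the gene (horizontal axis, kb) for each of the 69 histone genes, in genome order within each panel, with grey lines between the groups. Blue points are the wild type and open orange diamonds the knockdown, 1 library each; at 51 genes the diamond lies to the left of the point.

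In the linker histone family H1, whose proteins bind where DNA enters and leaves the nucleosome, all 6 members were shorter in the knockdown. Of these, 5 lie in the group at 26 Mb of chromosome 6 and 1 in that at 27.8 Mb. Family and group therefore cannot be told apart here. The mean of the 6 members went from 7.60 to 4.90 kb. H1-6 had 4.2 kb in wild-type cells and 0 kb in the knockdown. H1-1, the member with the longest wild-type length, had 10.8 and 5.8 kb, and H1-4 had 5.8 and 4.6 kb. All 6 H1 gene bodies lay wholly in a wild-type peak, and 5 in a knockdown peak. With the upper 50% of each list by score the family difference was -2.62%, against -35.5% with all peaks, and 3 members were shorter and 2 longer. In windows of 5 kb 5 members were shorter and 1 longer.

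Among the 17 H2A genes 11 were shorter and 5 longer, and the mean went from 8.18 to 6.79 kb. H2AC14 had 15.0 kb in wild-type cells and 7.58 kb in the knockdown. H2AC12 went the other way, with 4.16 and 10.96 kb. H2AC6 had 0 and 2.6 kb. H2AC25 had the longest length of any member in both lists, with 18.1 and 13.9 kb. Marked H2A genes numbered 14 in wild-type cells and 15 in the knockdown.

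Among the 18 H2B genes, whose proteins pair with H2A in the nucleosome, 11 were shorter and 5 longer. The mean went from 8.46 to 6.78 kb, and 14 were marked in each list. H2BC14, the partner of H2AC14, had 15.7 and 8.29 kb. H2BC12 had 10.3 and 13.3 kb. H2BC5 had 13.3 and 13.4 kb, the longest knockdown length in its group, with a difference of -5.149 kb where both lists were limited to the same number of peaks. H2BC12 spans 8566 bases and H2BC5 13229 bases, so their windows are longer than those of members spanning less than 2 kb.

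Among the 13 H3 genes 10 were shorter and 2 longer, and the mean went from 8.57 to 5.89 kb. H3C2 had 13.2 kb in wild-type cells and 5.81 kb in the knockdown. H3C11 had 10.5 and 11 kb. H3C13 had no peak within 10 kb in either list.

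The 15 H4 genes had the highest family mean in the wild type, 9.12 kb, and 6.13 kb in the knockdown. All but H4C7 of the H4 genes are known to encode the same protein. In this family 13 members were shorter and H4C9 alone was longer, with 7.92 and 9.0 kb. The knockdown peak over H4C9 lay at percentile 2.47 of its list. With lists of equal number of peaks 14 H4 genes, H4C9 among them, were shorter and 0 longer. H4C2 had 17.1 and 9.71 kb, and H4C11 had 13.3 and 5.19 kb, the largest decrease of any member. Marked H4 genes numbered 14 in wild-type cells and 10 in the knockdown. H4C3 had 4.2 and 0 kb, H4C5 had 8.62 and 4.22 kb, and H4C7 had 4.39 and 2.2 kb. The direction was not stable for all of these: H4C5 was longer by 3 kb with the upper 50% of each list by score, and H4C7 by 2.01 kb with lists of equal total length.

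**Figure D3:**
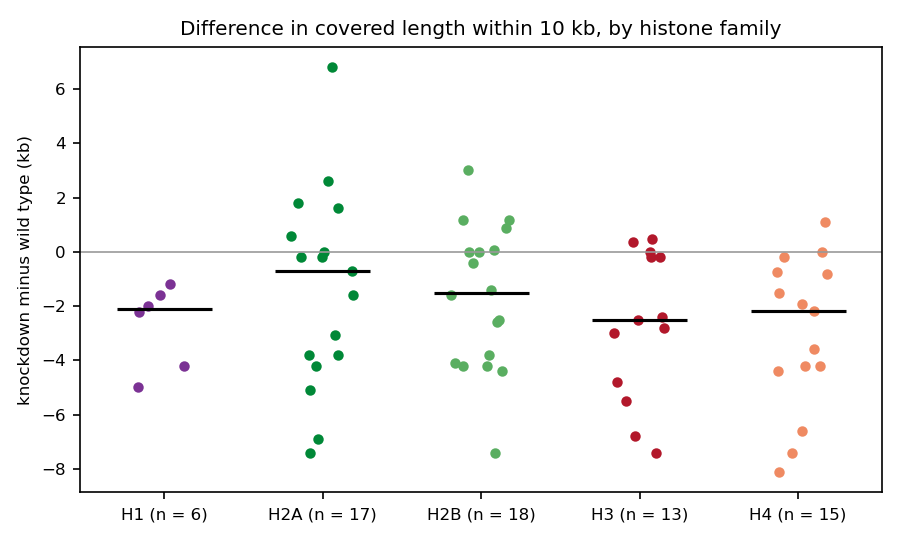
Difference in covered length, knockdown minus wild type (vertical axis, kb), for each member (points) by histone family (horizontal axis), with the family median as a black bar and points spread sideways for legibility. All 6 H1 points lie below 0, and the highest point is H2AC12.

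The group at 26 Mb of chromosome 6 held 7 of the 8 members marked in the wild type alone. Of its members the wild-type list marked 28 and the knockdown list 23, and 28 of its 32 members had a shorter length. The mean went from 8.37 to 5.47 kb, and the share of its span in peaks from 32.3% to 24.8%. With the upper 50% of each list by score the means were 3.77 and 3.37 kb, a difference of -0.40 kb against -2.90 kb with all peaks. It held 20 wild-type and 18 knockdown peaks within 10 kb of a member. The widest wild-type peak ran over H3C1, H4C1 and H4C2 (chr6:26019401-26029600, 10.2 kb). The knockdown peak inside it (chr6:26019601-26022600) was 3 kb wide and ended before H4C2. H4C2 is therefore among the members marked in the wild type alone, although it had 9.71 kb of knockdown peaks within 10 kb.

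Other wild-type peaks of this group had no counterpart that they touched in the knockdown. A peak of 4.2 kb (chr6:26104201-26108400) held H1-6 and part of H4C3. A peak of 3.2 kb (chr6:26204001-26207200) held H4C5. A peak of 2.4 kb (chr6:26248201-26250600) held most of H3C7 and lay within 2 kb of H4C7 and H2BC9. In the reverse direction, a knockdown peak of 2.6 kb (chr6:26123401-26126000) held H2AC6 and the start of H2BC4, with no wild-type peak there. H2BC4 spans 10.8 kb, and a wild-type peak lay more than 2 kb from it, so it had 4.2 kb of peaks in wild-type cells and 2.6 kb in the knockdown. In windows of 5 kb, which leave out most of that wild-type peak, H2BC4 was instead longer by 2.369 kb in the knockdown. At H2BC6 and H4C4, 3 wild-type peaks of 3.6, 2.2 and 0.8 kb faced 1 knockdown peak of 5.6 kb. H2BC6 had 11.2 and 10.8 kb, and H4C4 had 12 and 10.5 kb.

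Several of these peaks ranked low by the authors' deposited score, which was used only to rank peaks within a list. The wild-type peak at H4C5 lay at percentile 32.9 of its list, the peak at H1-6 at 28.1 and the peak at H3C7 at 13.4. The knockdown peak at H2AC6 lay at percentile 14.8 of its own list. A region just under the calling threshold of 1 library would also appear as a peak of the other list alone, and the depth of both libraries is unknown, so absence from a list was not tested as absence of the mark.

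**Figure D4:**
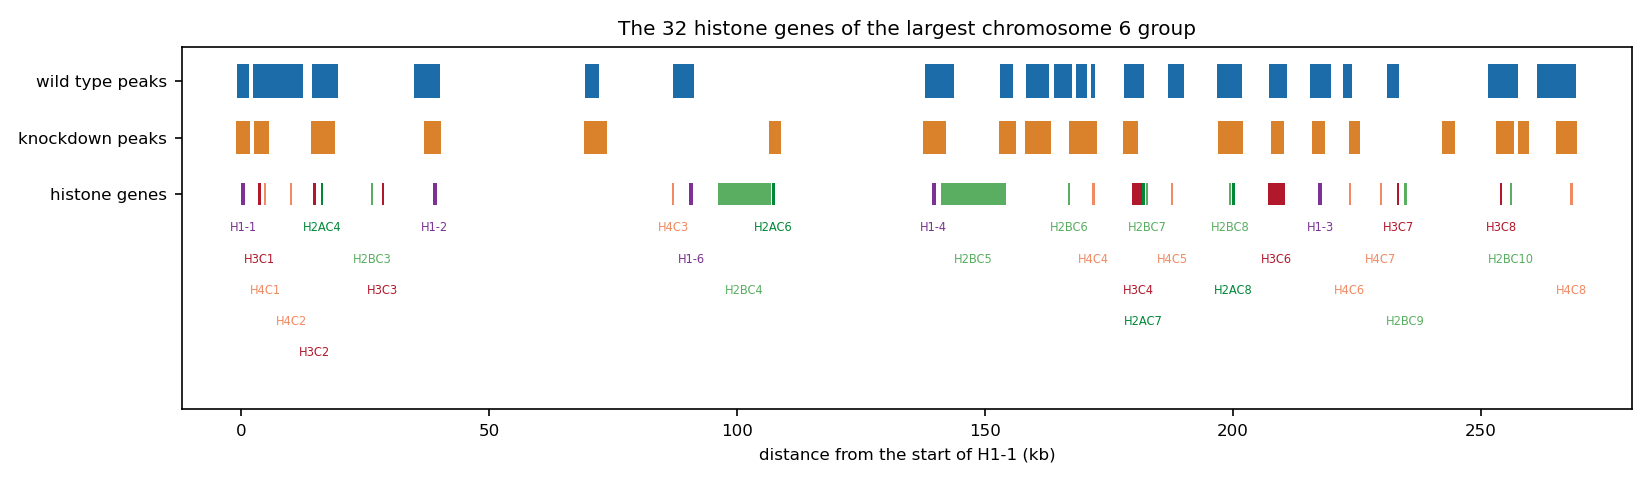
Map of the group at 26 Mb of chromosome 6, with distance from the start of H1-1 (horizontal axis, kb). The upper track shows wild-type peaks (blue), the middle track knockdown peaks (orange) and the lower track the 32 histone genes, coloured by family; 20 wild-type and 18 knockdown peaks lie within 10 kb of these genes.

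In the group at 27.8 Mb of chromosome 6 all 16 members were marked in both lists, and the median peak width was 5.8 kb in wild-type cells and 3.2 kb in the knockdown. The peak over H2AC15 and H2BC15 was wider in the knockdown, 8 kb against 6.4 kb. The mean length went from 11.7 to 8.31 kb, and 13 members were shorter and 3 longer. Peaks covered 51.9% of its span in wild-type cells and 39.8% in the knockdown, with 9 peaks in each list. The wild-type peak over H3C10, H2AC14 and H2BC14 (chr6:27810001-27816600, 6.6 kb) faced a knockdown peak with the same start and a width of 4.2 kb, which ended before both H2AC14 and H2BC14. The wild-type peak over H3C12, H2AC17 and H2BC17 (chr6:27888001-27897000, 9 kb) faced 2 knockdown peaks of 4.2 and 3.2 kb, with H2AC17 in the gap. H4C11 lay in a peak of 5.8 kb in wild-type cells and 2.8 kb in the knockdown. H2AC15 and H2BC15 were slightly longer in the knockdown, with 9.2 and 9.78 kb for H2AC15 and 9.03 and 10.2 kb for H2BC15.

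The group at 27.1 Mb of chromosome 6 held changes in both directions. At H2BC11 and H2AC11 the wild-type peak (chr6:27128801-27135600) was 6.8 kb wide and the knockdown peak (chr6:27129601-27132600) 3 kb, so both genes had 8.4 kb in wild-type cells and 4.6 kb in the knockdown. A knockdown peak of 4.4 kb (chr6:27144201-27148600) over H2AC12 and the start of H2BC12 touched no wild-type peak. It lay at percentile 56.1 of its list by score, above the other knockdown peaks of this group that touched a member. The mean of the 5 members was 7.83 kb in wild-type cells and 8.48 kb in the knockdown. This difference of 0.66 kb turned to -0.42 kb in windows of 5 kb, to -1.74 kb with the upper 50% by score and to -0.94 kb with equal numbers of peaks.

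The group at 149.8 Mb of chromosome 1 was the least marked of the larger groups, with 6 of 11 members in wild-type cells and 5 in the knockdown. H2BC18, H3C13 and H4C14 had no peak within 10 kb in either list. H3C14, H2AC18, H4C15, H2AC19 and H3C15 shared the same peaks and had 5.4 kb in wild-type cells and 5.2 kb in the knockdown. The wild-type peaks here ranked low, at percentiles 7.46 and 7.18 of their list. With lists of equal total covered length H2AC18 was longer by 5.2 kb in the knockdown, and the mean difference of the group was 2.75 kb against 0.30 kb with all peaks. Near-identical copies lie in this group: the aligned promoters of H3C14 and H3C15 (296 bases), of H2AC18 and H2AC19 (299 bases) and of H4C14 and H4C15 (300 bases) were identical. At 27.8 Mb of chromosome 6 the promoters of H4C12 and of H4C11, the member with the largest decrease, matched at 295 of 300 bases. Reads from such copies can be split between them or lost, depending on how the authors treated reads that map to several places, which no source used here gives. At the far end of the chromosome 1 group, H2BC21, H2AC20 and H2AC21 lay wholly in a peak of 6.6 kb in both lists. H2AC20 had 6.6 and 8.21 kb, and H2AC21 had 6.97 and 8.77 kb. The increase of H2AC21 turned to -0.37 kb with the upper 50% of each list by score.

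The 3 small groups differed widely in length. H2AC25 and H2BC26 lay in the widest peak near any member, 27.6 kb in the wild type (chr1:228452801-228480400), at percentile 95.4 of its list. In the knockdown that stretch held 2 peaks of 6.6 and 16 kb. H2BC26 had 18.1 kb in wild-type cells and 13.9 kb in the knockdown. H4C16 lay in a peak of 7.6 kb in wild-type cells and 6.8 kb in the knockdown, which also reached H2AJ, a replacement H2A gene. H2AC1 and H2BC1, known for expression in the testis, had no peak within 10 kb in either list.

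**Figure D5:**
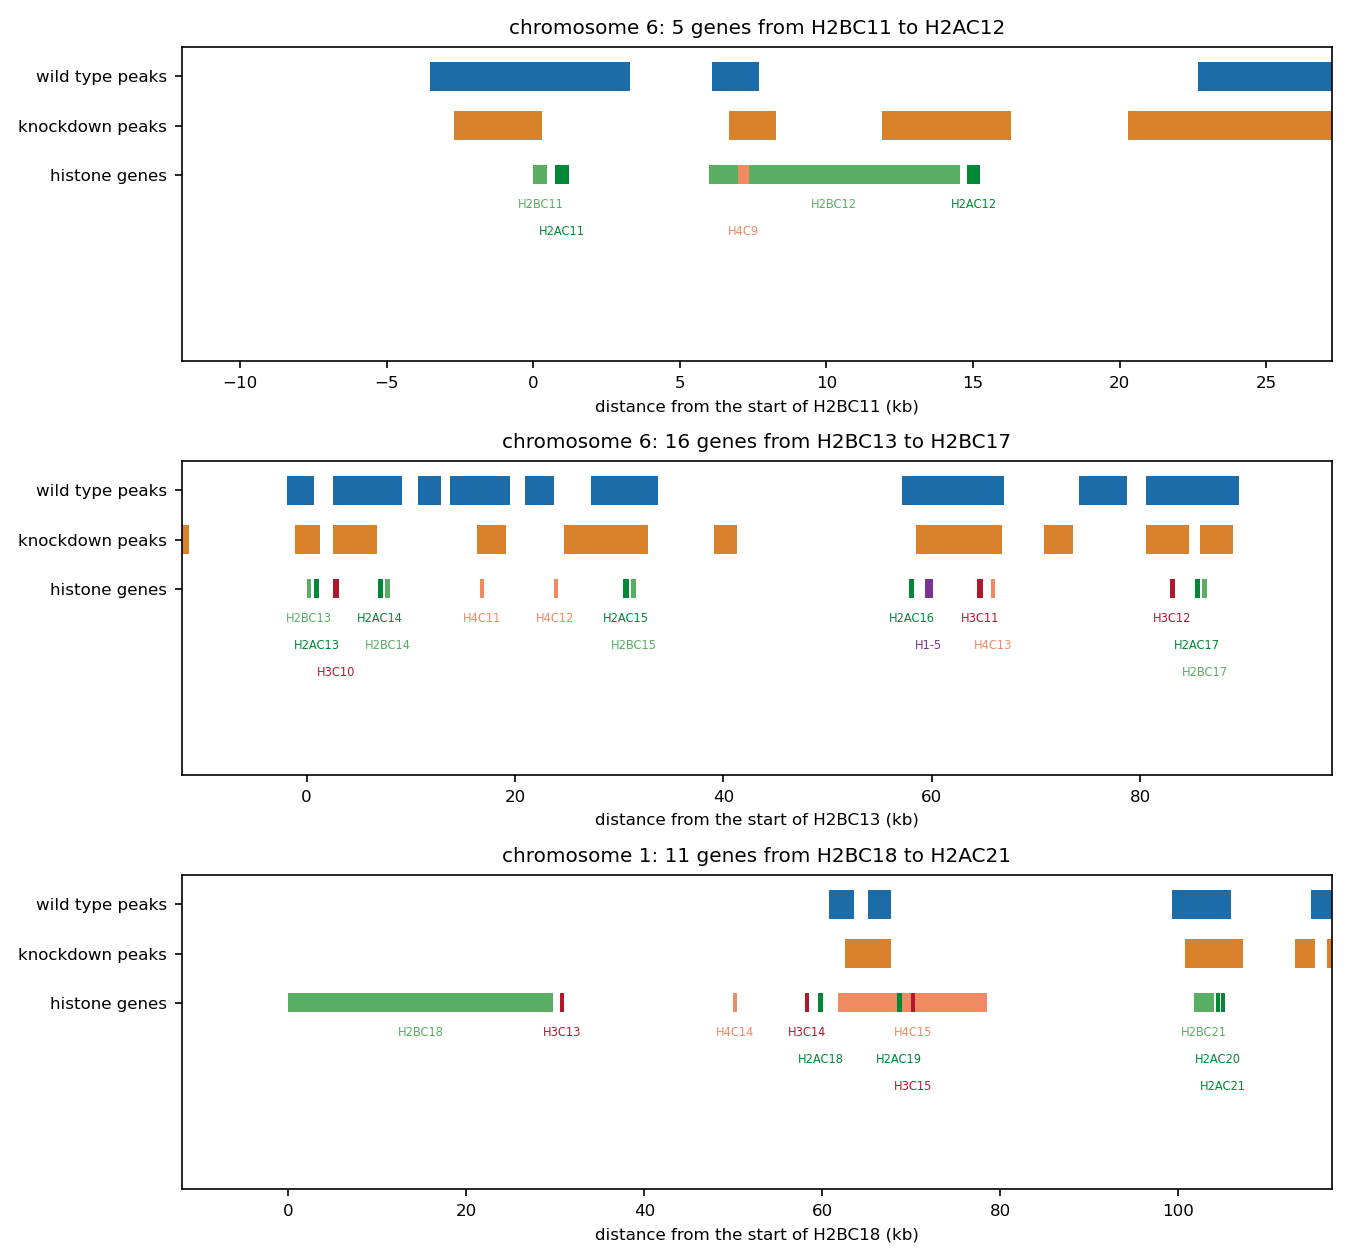
Maps of the groups at 27.1 and 27.8 Mb of chromosome 6 and at 149.8 Mb of chromosome 1, each with distance from the start of its leftmost histone gene (horizontal axis, kb). Tracks show wild-type peaks (blue), knockdown peaks (orange) and histone genes coloured by family; H2AC12 lies in a knockdown peak alone, and the leftmost 3 genes of the chromosome 1 map have no peak nearby.

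Counted once each, 39 wild-type and 38 knockdown peaks lay within 10 kb of a member, and 33 and 30 of them within 2 kb. They summed to 208 kb in wild-type cells and 167.6 kb in the knockdown, with median widths of 4.6 and 3.6 kb. Over all peaks the medians were 4.4 and 3.6 kb. Of the wild-type peaks near members 33, or 84.6%, touched a knockdown peak, against 71.4% of all wild-type peaks. Of the knockdown peaks 32, or 84.2%, touched a wild-type peak, against 74.1% of all. Where 1 wild-type peak touched 1 knockdown peak and no other, 16 of 25 near members were narrower in the knockdown and 6 wider, with a median width ratio of 0.837. Over all 16990 such pairs 59.8% were narrower and 35.7% wider, with a median ratio of 0.889, so the share of narrower pairs near members (64%) was close to that of all pairs. None of the peaks near members reached the score ceiling of 1000, and the highest scores were 208.2 in wild-type cells and 144.3 in the knockdown. Most of these peaks, 36 in each list, lay within 10 kb of more than 1 member, and at most 6 members shared a peak.

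Histone genes outside the rule gave a nearby comparison. Of 15 replacement and other variant histone genes, 12 were marked in wild-type cells and 13 in the knockdown. Their mean went from 10.5 to 8.92 kb, a difference of -15.0%, with 9 shorter and 4 longer. H3-3B, which encodes the replacement histone H3.3, had 18.8 kb in wild-type cells and 7.4 kb in the knockdown. H2AX, the variant phosphorylated at DNA breaks, had 19.7 and 14.9 kb. The linker variant H1-10 had 12.8 and 15.8 kb.

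Genes that transcribe or process histone messenger RNA showed no common direction. Of these 16 genes 14 were marked in wild-type cells and 15 in the knockdown, and 8 were shorter and 7 longer. Their mean went from 10.4 to 9.40 kb, a difference of -9.86%. SLBP had 18.7 and 18.8 kb, and NPAT had 4.8 and 4.2 kb. UPF1, a helicase that takes part in histone messenger RNA decay, had 39.0 and 27.6 kb, while ERI1, a nuclease of the same decay, had 5.4 and 11.8 kb.

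The planned comparison was with the other protein-coding genes that overlap the span of a group, which number 4. Of these, 1 was marked in each list, and their mean length went from 1.74 to 1.15 kb. In the knockdown 1 was shorter, 0 longer and 3 equal. A second set was compared after the data had been seen. It holds the 20 protein-coding genes, not members, that overlap the stretch from the leftmost to the rightmost chromosome 6 member. Some of the 4 genes are among these 20. Of these genes 11 were marked in wild-type cells and 12 in the knockdown, and their mean length was 3.85 kb in wild-type cells and 5.12 kb in the knockdown. Here 11 genes were longer in the knockdown and 3 shorter, against 10 longer and 43 shorter of the 55 histone genes on chromosome 6. Neighbouring genes share peaks in both sets, so these are not counts of independent events. Among the 20 genes TRIM38 had 3 and 8.2 kb, while ZNF391 had 6.4 and 4.6 kb. With the upper 50% of each list by score these other genes had 1.996 and 1.804 kb, with 3 longer and 3 shorter. Over all 987 protein-coding genes of chromosome 6 that are not members, 46% were shorter and 33.9% longer.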

How the data were processed

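H2AK119ub peak lists of 1 wild-type and 1 YTHDF1 knockdown library were used, and the inputs were not analysed here. Per the submitters' processing notes, the build was hg38 and the tools included Trimmomatic 0.35, Bowtie2 2.2.5 and SAMtools 1.3.1. The same notes name Picard and the peak callers SICER 1.1 and MACS2 2.1.0. Which caller made the lists, and with what threshold, no source used here gives. The score the authors deposited for each peak has no stated unit and was used only to describe, rank or filter peaks within a list. Depth is unknown, so no counting interval is given.

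Starts are multiples of 200 bp and ends 1 bp below one, so ends were read as inclusive. On chromosomes 1 to 22 and X, the wild-type list kept 32791 of 32798 peaks, the knockdown list 34390 of 34393. Gene positions came from RefSeq GRCh38.p14. Intervals were counted with Python 3.11.15, numpy 2.4.6 and pandas 2.3.3, and the counting was checked on simulated intervals. Peaks were called shared from 1 bp.

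The members and lists were chosen with earlier results of these data known. Genes described by rule were those with the longest length in each group and list, the 5 largest increases and decreases, members marked in 1 list alone, members without a peak, H2AC20, H2AC21 and H4C16. Other genes were named after their values were seen. Alternatives changed the window, the peaks used and the members used. A planned description of H2A protein sequences was not made here.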

Additional observations from a re-analysis of the deposited data

How the results depend on the processing

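No paired analysis was possible because each group has 1 library. Of the alternatives, 101 values of summary results stayed within 1.5 times the reported value and 27 moved further. In windows of 5 kb the mean length was 5.15 kb for wild-type and 4.04 kb for knockdown peaks, the mean difference -1.12 kb, the median difference -0.841 kb, and 5 members were marked in the wild type alone. With the upper 50% of each list by score, 35 members were marked in the wild type, with 18 wild-type and 22 knockdown peaks, mean lengths of 5.16 and 4.04 kb, a mean difference of -1.12 kb, a median difference of 0 kb, 31 members shorter and 9 marked in the knockdown alone. With lists of equal total length the mean difference was -1.13 kb, 21 members were longer, the wild type alone marked 4 and the knockdown alone 6. Without peaks under 2 kb, 5 members were marked in the knockdown alone. Without the 26 Mb group of chromosome 6, an alternative chosen after the values were seen, 29 members were marked in each list, 1 in each list alone, with 19 wild-type and 20 knockdown peaks, 23 members shorter and a median difference of -0.2 kb. These last counts are lower because fewer members enter.

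Single members were followed through the alternatives only where they were described by rule. Others, such as H2AC15, H2BC15 and H4C9, were not part of that check. Among the members described by rule, the sign of the difference turned for the 5 below, which had differed by at least 1 kb. With the upper 50% by score the difference was -0.365 kb at H2AC21 and 3 kb at H4C5. In windows of 5 kb it was 2.369 kb at H2BC4 and -2.4 kb at H2BC9. With lists of equal total length it was 2.01 kb at H4C7. The sign also turned for 4 members described by rule that had smaller differences. In windows of 5 kb the difference was -2.4 kb at H3C7 and -0.2 kb at H3C11. With lists of equal number of peaks it was -5.149 kb at H2BC5, and with equal total length 5.2 kb at H2AC18. The cause was not tested. Each mean difference over all members was negative under these alternatives. With 1 library per group and unknown depth, a peak missing from a list cannot be told apart from one just under its threshold.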
